A study of Mus musculus with 18 samples.

Results

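The genes described here encode the enzymes that write, copy and oxidize DNA methylation in mouse cells, together with their closest cofactors. They are *Dnmt1*, *Dnmt3a*, *Dnmt3b*, *Dnmt3l*, *Uhrf1*, *Tet1*, *Tet2*, *Tet3* and *Tdg*, and the array rows were chosen by gene symbol alone, without regard to their values. Of these 9 genes, 8 had probe sets that carry 1 gene symbol, 11 probe sets in all among the 35512 of the array. The 4 probe sets of *Tdg* also carry the symbol of its transcribed pseudogene *Tdg-ps2*, so they name no single gene and are described apart.

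Dnmt1 copies methylation onto newly made DNA strands at replication, and Uhrf1 recruits it to hemimethylated CpG sites. Dnmt3a and Dnmt3b set new methylation, and Dnmt3l, which has no catalytic activity of its own, stimulates them and is typical of ESCs and germ cells. Tet enzymes oxidize 5-methylcytosine, and Tdg excises the further oxidized bases so that base excision repair can restore cytosine.

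Gene expression was measured on Affymetrix arrays in J1 (129Sv/Jae) mouse ESCs and in the EBs made from them. The wt line was compared with a *Dnmt1*-/- line and with a TKO line, which is mutated in *Dnmt1*, *Dnmt3a* and *Dnmt3b*. Each line was sampled as undifferentiated ESCs (d0) and as hanging drop EBs, grown without LIF, at d4 and d16. These 9 groups had 2 arrays each (replicates 1 and 2, biological duplicates), 18 arrays in all. Each genotype is 1 line, so that a difference between genotypes cannot be told apart from a difference between these lines, and the sources used here do not say whether the mutant lines are single clones. EBs are a mixture of cell types, and in such bulk RNA fewer cells of a type and less RNA per cell cannot be told apart.

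Promoter sequences give the setting of the genes that moved furthest. RefSeq (GRCm38.p6) windows of 300 bases, from 250 before to 50 after a transcript start, were at hand for all 9 genes, 16 windows in all. The windows of *Dnmt3l*, *Tet1* and *Dnmt3b* are printed because these 3 genes showed the largest falls in wt EBs by d16. They read 5′ to 3′ on the strand of the gene, with every CpG dinucleotide, the site that these enzymes modify, in capitals. *Dnmt3l* has 3 annotated starts on the plus strand, numbered from the most upstream one, *Tet1* has 1 on the minus strand and *Dnmt3b* has 1 on the plus strand. The windows lie at chr10:78042037-78042336, chr10:78049592-78049891 and chr10:78055085-78055384 for *Dnmt3l*, at chr10:62887275-62887574 for *Tet1* and at chr2:153649199-153649498 for *Dnmt3b*.
Dnmt3l start 1: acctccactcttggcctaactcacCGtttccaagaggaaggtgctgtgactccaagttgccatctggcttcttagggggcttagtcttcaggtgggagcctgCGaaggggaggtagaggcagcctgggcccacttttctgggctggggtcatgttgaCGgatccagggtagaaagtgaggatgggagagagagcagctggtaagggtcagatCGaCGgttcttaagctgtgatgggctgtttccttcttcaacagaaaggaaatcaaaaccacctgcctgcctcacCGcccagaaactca
Dnmt3l start 2: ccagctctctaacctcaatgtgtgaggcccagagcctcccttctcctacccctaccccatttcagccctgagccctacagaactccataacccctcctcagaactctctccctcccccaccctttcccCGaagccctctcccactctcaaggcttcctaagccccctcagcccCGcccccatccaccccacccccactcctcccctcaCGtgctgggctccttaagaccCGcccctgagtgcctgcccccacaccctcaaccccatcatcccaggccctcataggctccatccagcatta
Dnmt3l start 3: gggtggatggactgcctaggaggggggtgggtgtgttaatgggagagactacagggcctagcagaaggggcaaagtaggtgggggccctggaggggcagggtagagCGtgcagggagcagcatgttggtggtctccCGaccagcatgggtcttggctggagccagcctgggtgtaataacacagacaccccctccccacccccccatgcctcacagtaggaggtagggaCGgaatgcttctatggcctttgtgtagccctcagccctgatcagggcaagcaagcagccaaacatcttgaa
Tet1: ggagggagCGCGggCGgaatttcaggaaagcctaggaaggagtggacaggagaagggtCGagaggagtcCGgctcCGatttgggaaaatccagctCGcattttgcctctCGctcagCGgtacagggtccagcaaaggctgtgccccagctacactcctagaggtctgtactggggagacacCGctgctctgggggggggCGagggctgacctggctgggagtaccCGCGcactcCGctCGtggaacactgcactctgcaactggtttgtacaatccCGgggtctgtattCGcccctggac
Dnmt3b: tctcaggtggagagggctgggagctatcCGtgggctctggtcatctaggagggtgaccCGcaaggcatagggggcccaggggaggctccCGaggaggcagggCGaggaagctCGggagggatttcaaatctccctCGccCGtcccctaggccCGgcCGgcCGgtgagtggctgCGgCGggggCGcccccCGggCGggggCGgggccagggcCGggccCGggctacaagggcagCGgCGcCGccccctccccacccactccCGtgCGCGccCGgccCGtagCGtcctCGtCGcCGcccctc

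The *Dnmt3l* windows held the fewest CpG sites of the printed ones, with 6, 4 and 3 at its starts 1, 2 and 3. The *Tet1* window held 17 and the *Dnmt3b* window 30, against a median of 7 over the 32851 RefSeq windows of this length. *Tet2*, with 57 CpG sites, had more than 99.8% of all windows. Among the 3 starts of *Dnmt1* the count ran from 2 to 33, and among those of *Dnmt3a* from 18 to 47. The arrays sum signal over the whole transcript, so they do not show which start was used, and methylation itself was not measured in these files. A motif of the E2F type (TTTNNCGC, on either strand), which marks many genes of S phase, was searched after the sequences had been seen. It was in 3 of the 16 windows, start 3 of *Dnmt1* and both starts of *Uhrf1*, and in 5.2% of all RefSeq windows. The motif itself holds a CpG, and these 3 windows held 33, 12 and 33 CpG sites, above the median of 7. Since the 5.2% was not matched for CpG count, it does not show whether the motif is frequent here.

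**Figure D1:**
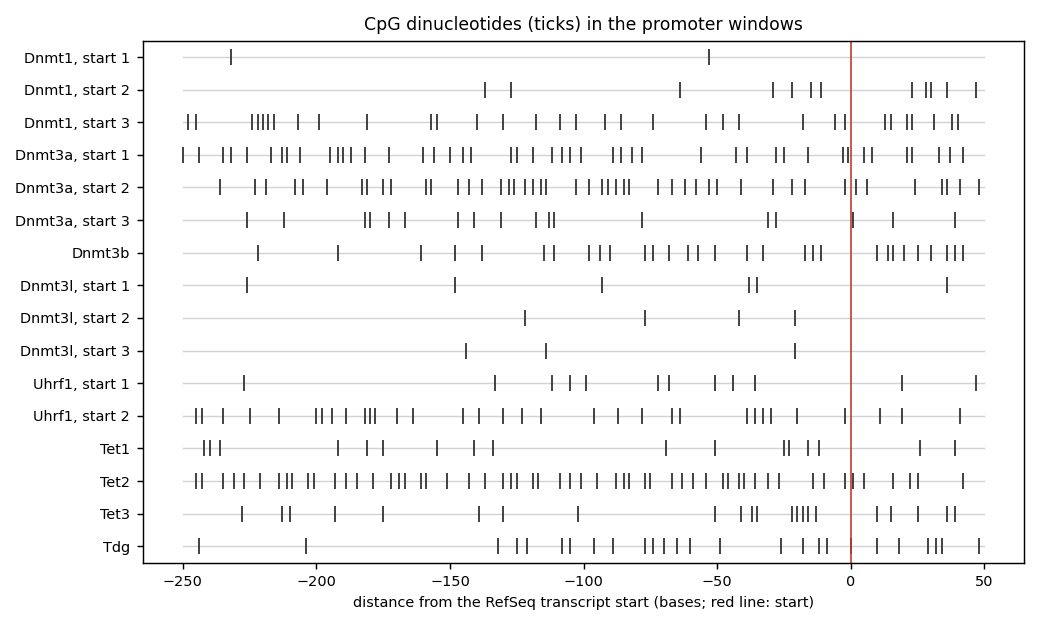
Positions of CpG dinucleotides (ticks) in the 16 RefSeq promoter windows of the 9 genes, by distance from the transcript start in bases (red line at 0). The 3 windows of *Dnmt3l* hold 6, 4 and 3 CpG sites and are the sparsest beside start 1 of *Dnmt1*, which holds 2.

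Signals are RMA values on the log2 scale, so a difference of 1 is a 2-fold difference in signal, and they are compared only within a probe set. Differences were estimated with limma, in 1 model with a mean for each of the 9 groups. A gene was called higher or lower when its log2 fold change was at least 1 in size and its adjusted p, from limma with Benjamini-Hochberg adjustment over all 35512 probe sets, was under 0.05. With 9 residual degrees of freedom over 9 groups, 1 array can decide a call. For the methyltransferase genes, *Dnmt3l*, *Uhrf1* and the Tet genes, arrays whose omission ended a call are therefore named beside that call. Calls of all other genes were not tested by omission of an array, so whether they depend on a single array is not known.

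**Figure D2:**
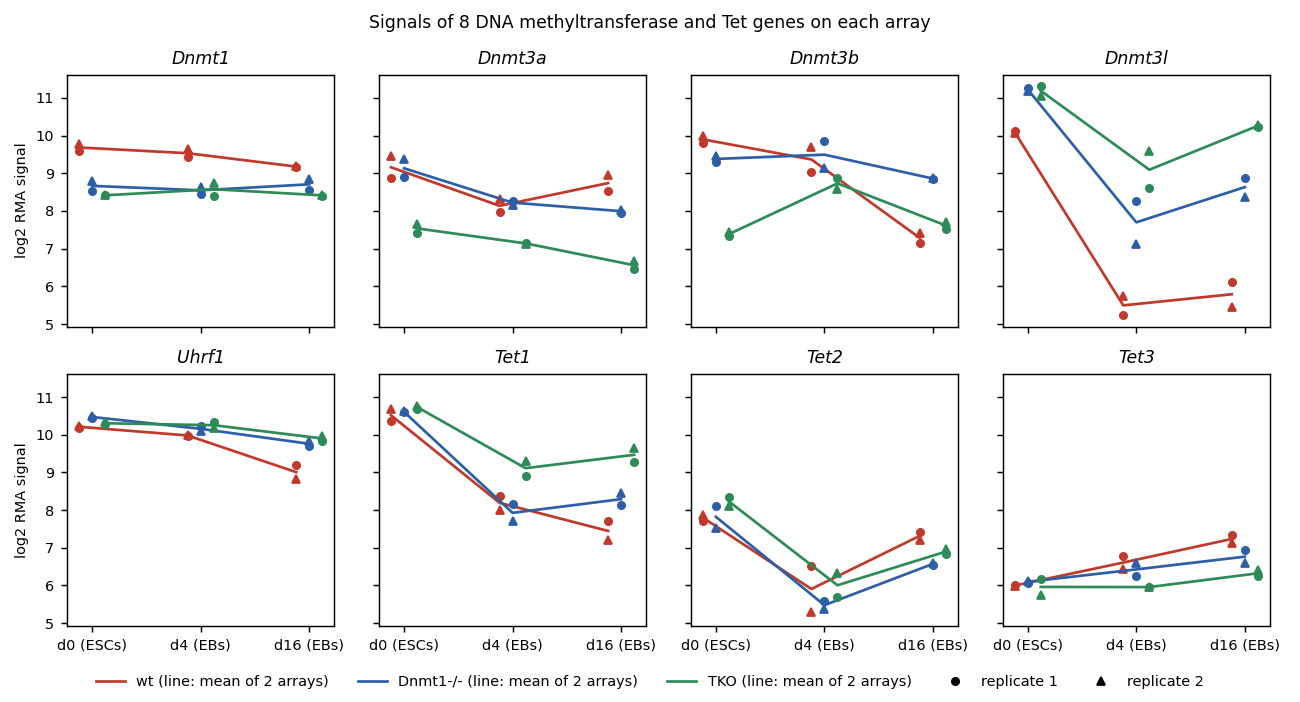
Log2 RMA signal of 8 genes on each of the 18 arrays (vertical axis) by day (horizontal axis) and genotype (wt red, Dnmt1-/- blue, TKO green). Circles are replicate 1, triangles replicate 2 and lines join the means of 2 arrays. *Dnmt3l* spans 5.24 to 11.32 and orders wt, Dnmt1-/- and TKO EBs from low to high at d4 and d16, whereas *Uhrf1* stays between 8.82 and 10.51.

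In ESCs only mutated genes were called lower than in wt. In *Dnmt1*-/- ESCs 1 of the 8 genes was called, where 0.355% of all probe sets were called. In TKO ESCs 3 were called, against 0.304% of all probe sets, and all 3 are mutated in that line. The other 5 genes were not called in either mutant at d0. *Dnmt3b*, which is not mutated in the *Dnmt1*-/- line, differed from wt there by −0.52 ± 0.24. Both arrays lay below those of wt, but the difference did not pass the test (limma, adjusted p = 0.87).

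*Dnmt1* lies on chromosome 9 (20907206 to 20959888, GRCm38.p6). Its signals in wt were 9.60 and 9.77 at d0, 9.42 and 9.64 at d4, and 9.16 and 9.20 at d16. The *Dnmt1*-/- cells gave 8.53 and 8.81, 8.45 and 8.65, and 8.56 and 8.86 at the same days. In TKO cells they were 8.42 and 8.41, 8.40 and 8.75, and 8.40 and 8.43. Every wt array was thus above every mutant array, and all mutant arrays lay between 8.40 and 8.86. *Dnmt1* was lower in *Dnmt1*-/- ESCs, with a log2 fold change of −1.02 ± 0.16 (SE, adjusted p = 0.012), and in TKO ESCs, with −1.27 ± 0.16 (adjusted p = 0.0035). In EBs the difference from wt was smaller than 2-fold, with −0.98 and −0.95 at d4 and −0.47 and −0.76 at d16 in *Dnmt1*-/- and TKO. The call in *Dnmt1*-/- ESCs was lost without replicate 1 or 2 of wt d0 (−1.11 and −0.93) or replicate 1 of *Dnmt1*-/- d0 (−0.88). That in TKO ESCs was lost without replicate 1 of TKO d0 (−1.27, adjusted p = 0.052). At d4 a call was gained without replicate 1 of wt d4 (−1.09 in *Dnmt1*-/-, −1.06 in TKO), without replicate 2 of *Dnmt1*-/- d4 (−1.08) and without replicate 2 of TKO d4 (−1.13). For none of the 3 mutated genes do the sources used here place the probes inside or outside the deleted part, so the signal of *Dnmt1* in the mutants, and of *Dnmt3a* and *Dnmt3b* in TKO, says nothing about an intact transcript.

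*Dnmt3a* (chromosome 12, 3801559 to 3914443) was lowest in TKO cells on every day. The wt arrays gave 8.87 and 9.45 at d0, 7.96 and 8.31 at d4, and 8.53 and 8.95 at d16. Those of *Dnmt1*-/- cells were 8.89 and 9.38, 8.27 and 8.17, and 7.96 and 8.03. TKO cells gave 7.42 and 7.65, 7.15 and 7.13, and 6.45 and 6.67. No TKO array reached the lowest array of another genotype of any day, which was 7.96. Against wt, TKO was called lower at d0 (−1.62 ± 0.22, adjusted p = 0.0068) and at d16 (−2.18 ± 0.22, adjusted p = 3.5e-05), and at d4 the difference of −0.997 ± 0.22 stopped just short of 2-fold (adjusted p = 0.02). The d0 call was lost without replicate 2 of wt d0 (−1.34) or replicate 1 of TKO d0 (−1.51), and the d4 difference was called without replicate 1 of wt d4 (−1.17). In the line in which this gene is not mutated and only *Dnmt1* is missing, *Dnmt3a* did not differ from wt by a call on any day, with differences of −0.03, 0.09 and −0.75.

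*Dnmt3a* was also compared between days in each line. In wt it fell from d0 to d4 (−1.02 ± 0.22, adjusted p = 0.012), a call that ended without replicate 2 of wt d0 (−0.74) or replicate 1 of wt d4 (−0.85). By d16 the wt change from d0 was −0.42, which did not pass the test (adjusted p = 0.22). It fell in *Dnmt1*-/- cells from d0 to d16 (−1.14 ± 0.22, adjusted p = 0.0039), a fall under 2-fold without replicate 2 of *Dnmt1*-/- d0 (−0.90). In TKO the change from d0 to d16 was −0.98 ± 0.22, just under 2-fold (adjusted p = 0.024), and it was called with array medians subtracted (−1.04, adjusted p = 0.013) and with further quantile normalization (−1.05, adjusted p = 0.033). The change from d0 to d16 differed between *Dnmt1*-/- and wt by −0.72 ± 0.32, with an adjusted p of 0.44 and a 95% interval of −1.41 to −0.03.

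*Dnmt3b* (chromosome 2, 153649411 to 153687730) was lowest in TKO among the ESCs and lowest in wt among the EBs of d16. Its signals in wt were 9.80 and 10.002 at d0, 9.04 and 9.70 at d4, and 7.16 and 7.41 at d16. The *Dnmt1*-/- cells gave 9.31 and 9.45, 9.85 and 9.14, and 8.85 and 8.87. In TKO cells, where the gene is mutated, they were 7.33 and 7.45, 8.88 and 8.58, and 7.52 and 7.71. The d16 arrays of wt were below those of every other group except TKO d0, whose arrays they overlapped. In wt the gene fell from d0 to d16 (−2.62 ± 0.24, 6.15-fold, adjusted p = 9.4e-06), with −0.53 ± 0.24 to d4 (adjusted p = 0.22) and a called fall after d4 (−2.09 ± 0.24, adjusted p = 0.00012). *Dnmt1*-/- cells showed −0.52 ± 0.24 over the same time, which did not pass the test (adjusted p = 0.18). At d16 *Dnmt3b* was therefore 2.99-fold higher in *Dnmt1*-/- EBs than in wt EBs (1.58 ± 0.24, adjusted p = 0.0017).

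In TKO cells, where *Dnmt3b* is mutated, the signal of its probe set still changed with time. It was lower than wt in ESCs (−2.52 ± 0.24, adjusted p = 0.00038), then rose by 1.35 ± 0.24 to d4 (adjusted p = 0.0056) and fell to d16 (−1.12 ± 0.24, adjusted p = 0.032). At d16 it was 0.33 ± 0.24 above wt, which did not pass the test (adjusted p = 0.48), the wt signal being by then 7.28 ± 0.18 (SD, n = 2). The rise in TKO was lost without replicate 1 of TKO d0 (1.29) or replicate 1 of TKO d4 (1.20). The later fall was lost without replicate 1 or 2 of TKO d4 (−0.97 and −1.27) or of TKO d16 (−1.02 and −1.22). As a difference between lines, the change from d0 to d16 was 2.85 ± 0.34 more positive in TKO than in wt (adjusted p = 0.00052) and 2.10 ± 0.34 more positive in *Dnmt1*-/- than in wt (adjusted p = 0.012), in contrasts where 3.91% and 1.37% of all probe sets were called. The latter was lost without replicate 2 of wt d0 (2.00, adjusted p = 0.052).

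Markers of the primitive streak and epiblast (*Eomes*, *Mixl1* and *Fgf5*) peaked at d4 in each line. Their mean level at d0, d4 and d16 was 5.50, 9.37 and 6.89 in TKO, 5.71, 8.69 and 6.80 in *Dnmt1*-/-, and 6.18, 8.32 and 5.93 in wt. From d0 to d4, 3 of the 3 were called higher in TKO and in *Dnmt1*-/- and 2 in wt. *T*, also on this list of 4 markers, had no probe set under that symbol alone. Of 8 ESC markers 4 were called higher in *Dnmt1*-/- than in wt EBs of d16, where *Dnmt3b* was higher as well. In TKO EBs 7 of the 8 were called higher than in wt at d4 and at d16. *Dnmt3b*, mutated in that line, differed there by −0.64 and 0.33 (neither called). The part of all these markers in the *Dnmt3b* results was not tested.

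*Dnmt3l* (chromosome 10, 78042287 to 78063622) had the widest range of all 8 genes. The wt arrays gave 10.12 and 10.06 at d0, 5.24 and 5.75 at d4, and 6.12 and 5.46 at d16. Those of *Dnmt1*-/- cells were 11.26 and 11.19, 8.28 and 7.12, and 8.89 and 8.38. TKO cells gave 11.32 and 11.06, 8.61 and 9.58, and 10.23 and 10.29. At d4 and at d16 the arrays of the 3 genotypes did not overlap, with wt lowest and TKO highest, and the TKO arrays of d16 were above even the wt ESC arrays. Among the 9 groups ranked by mean, the neighbouring pairs whose arrays overlapped were *Dnmt1*-/- d0 and TKO d0, TKO d4 and *Dnmt1*-/- d16, and wt d16 and wt d4.

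Against wt, *Dnmt3l* was 12.1-fold higher in TKO EBs at d4 (log2 3.60 ± 0.38, adjusted p = 0.00013) and 22.2-fold higher at d16 (4.47 ± 0.38, adjusted p = 7e-06). In *Dnmt1*-/- EBs it was 4.61-fold higher at d4 (2.20 ± 0.38, adjusted p = 0.014) and 7.18-fold higher at d16 (2.84 ± 0.38, adjusted p = 0.00064). The call of *Dnmt1*-/- d4 was lost without replicate 1 of wt d4 (1.95) or replicate 1 of *Dnmt1*-/- d4 (1.63), and the other 3 calls held without each array in turn. In ESCs the mutants were 1.13 ± 0.38 and 1.10 ± 0.38 above wt, which did not pass the test (adjusted p = 0.54 in *Dnmt1*-/- and 0.34 in TKO).

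Between TKO and *Dnmt1*-/- EBs the difference in *Dnmt3l* was not called. It was 1.40 at d4 (95% interval 0.57 to 2.22, adjusted p = 0.11) and 1.63 at d16 (0.80 to 2.45, adjusted p = 0.054). At d16 the adjusted p passed the threshold without any 1 of the 4 EB arrays of *Dnmt1*-/- d4 and TKO d4, at the same log2 value of 1.63 and with adjusted p between 0.026 and 0.044. At d4 the difference was called without replicate 1 of *Dnmt1*-/- d4 (1.97, adjusted p = 0.025). The d16 difference also passed with further quantile normalization (1.68, adjusted p = 0.04), with the 30% dimmest probe sets omitted (adjusted p = 0.039), with trend and robust variance (adjusted p = 0.0499) and with adjustment over all comparisons together (adjusted p = 0.023), and the d4 difference with the last of these (adjusted p = 0.049).

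Over time *Dnmt3l* fell in every genotype by d4, with −4.60 ± 0.38 in wt (24.2-fold, adjusted p = 2.2e-05), −3.53 ± 0.38 in *Dnmt1*-/- (adjusted p = 0.00015) and −2.09 ± 0.38 in TKO (adjusted p = 0.006). The fall in TKO was lost without replicate 1 of TKO d0 (−1.97) or replicate 1 of TKO d4 (−1.61). By d16 it was still called below its ESC level in wt (−4.30 ± 0.38) and in *Dnmt1*-/- (−2.59 ± 0.38), whereas TKO stood at −0.93 ± 0.38, which did not pass the test (adjusted p = 0.22). The change from d0 to d16 was 3.37 ± 0.54 more positive in TKO than in wt (adjusted p = 0.0032), and it held without each array. The change from d0 to d4 was 2.50 ± 0.54 more positive in TKO than in wt (adjusted p = 0.041, where 1.38% of probe sets were called), with adjusted p between 0.051 and 0.16 without any 1 of the 2 arrays each of wt d0, wt d4, *Dnmt1*-/- d0, *Dnmt1*-/- d16, TKO d0 and TKO d16 or without replicate 2 of TKO d4.

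*Uhrf1* (chromosome 17, 56303337 to 56323486) kept a high signal in all groups and fell late. Its signals in wt were 10.18 and 10.24 at d0, 9.96 and 9.999 at d4, and 9.19 and 8.82 at d16. The *Dnmt1*-/- cells gave 10.44 and 10.51, 10.23 and 10.09, and 9.70 and 9.82. In TKO cells they were 10.28 and 10.33, 10.34 and 10.17, and 9.84 and 9.96. The wt arrays of d16 were the lowest of all 18. The fall in wt from d0 to d16 (−1.20 ± 0.14, 2.30-fold, adjusted p = 4.9e-05) was the only called change of this gene. *Dnmt1*-/- and TKO EBs of d16 stood 0.75 ± 0.14 and 0.89 ± 0.14 above wt, with adjusted p of 0.0062 and 0.0009 but under 2-fold. Without replicate 1 of wt d16, TKO reached 1.08 above wt and the wt fall after d4 reached −1.16, and both were then called.

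By their mean, 7 genes of the cell cycle (*Mcm2*, *Mcm5*, *Mcm6*, *Ccne1*, *Mki67*, *Top2a* and *Cdk1*) moved beside *Uhrf1*. Their mean level at d16 was 8.998 to 9.32 on the wt arrays, 9.59 to 9.65 in *Dnmt1*-/- and 9.88 to 9.89 in TKO, against 10.25 to 10.34 on all ESC arrays. From d0 to d16, 3 of the 7 were called lower in wt, 2 in *Dnmt1*-/- and 0 in TKO. Against wt at d16, 0 of the 7 were called in *Dnmt1*-/- and 1, higher, in TKO. Not all moved alike, and *Mki67* was at 9.27, 9.59 and 8.99 in wt and 9.15, 9.35 and 9.29 in TKO at d0, d4 and d16. The part of these genes in the *Uhrf1* result was not tested.

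*Tet1* (chromosome 10, 62804570 to 62887469) fell in all EBs, and by less in TKO than in wt. The wt arrays gave 10.35 and 10.68 at d0, 8.37 and 8.01 at d4, and 7.70 and 7.20 at d16. Those of *Dnmt1*-/- cells were 10.59 and 10.62, 8.15 and 7.70, and 8.13 and 8.45. TKO cells gave 10.69 and 10.77, 8.92 and 9.31, and 9.28 and 9.65. No TKO EB array overlapped an EB array of another genotype, while the arrays of wt and *Dnmt1*-/- overlapped at d4 and lay apart at d16. From d0 to d16 *Tet1* fell in each line, with −3.07 ± 0.23 in wt (8.39-fold, adjusted p = 2.3e-06), −2.32 ± 0.23 in *Dnmt1*-/- (adjusted p = 4.8e-05) and −1.27 ± 0.23 in TKO (adjusted p = 0.0081). The last was lost without either array of TKO d0 (−1.31 and −1.23) or replicate 1 of TKO d16 (−1.08). The change was 1.80 ± 0.33 more positive in TKO than in wt (adjusted p = 0.0072), and this held without each array. Against *Dnmt1*-/- the change in TKO differed by 1.05 (95% interval 0.34 to 1.76), which did not pass the test (adjusted p = 0.34).

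At d16 the *Tet1* signal of TKO EBs was thus 4.06-fold that of wt EBs (2.02 ± 0.23, adjusted p = 9.2e-05), a call that held without each array. At d4 the difference was 0.92 ± 0.23, under 2-fold (adjusted p = 0.038). Against *Dnmt1*-/- EBs, TKO was 1.19 ± 0.23 higher at d4 (adjusted p = 0.029) and 1.18 ± 0.23 higher at d16 (adjusted p = 0.025). The d4 call was lost without replicate 2 of *Dnmt1*-/- d4 (0.96) or without replicate 1 or 2 of TKO d4 (1.38 and 0.99). The d16 call was lost without either array of *Dnmt1*-/- d16 (1.02 and 1.34) or replicate 2 of TKO d16 (0.99). *Dnmt1*-/- EBs themselves stood 0.84 ± 0.23 above wt at d16 (adjusted p = 0.056), which was called without replicate 1 of wt d16 (1.09). The 3 probe sets of *Tet1* gave 1.96 to 2.02 for TKO against wt at d16, and 1 of them did not pass the test for TKO against *Dnmt1*-/- at d4 (1.11, adjusted p = 0.058).

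Markers of ESCs ran beside *Dnmt3l*, and beside *Tet1* only in part. The mean level of 8 such genes (*Pou5f1*, *Nanog*, *Sox2*, *Esrrb*, *Klf4*, *Zfp42*, *Utf1* and *Fgf4*) was 10.07 to 10.49 on all ESC arrays. At d4 it was 6.88 to 6.92 in wt, 7.12 to 8.18 in *Dnmt1*-/- and 9.06 to 9.51 in TKO. At d16 it was 6.84 to 7.22 in wt, 8.45 to 8.61 in *Dnmt1*-/- and 9.65 to 9.69 in TKO. Against wt, 7 of the 8 were called higher in TKO EBs at d4 and at d16, and in *Dnmt1*-/- EBs 0 at d4 and 4 at d16. At d4 *Klf4* was not called in TKO, with −0.44 ± 0.19. None of the 8 was called between mutant and wt ESCs, with a median log2 difference of 0.17 in *Dnmt1*-/- and 0.28 in TKO. *Dnmt3l* differed there by 1.13 and 1.10 (not called). In *Dnmt1*-/- EBs of d4 *Dnmt3l* was called higher, by 2.20 ± 0.38, where 0 of the 8 markers were called. In TKO EBs of d16 its mean was 10.26, above 10.09 in wt ESCs, whereas the marker mean was 9.67, below 10.10 in wt ESCs. At d4 *Tet1* was −0.27 ± 0.23 from wt in *Dnmt1*-/- EBs (not called), where the marker mean was 7.65 against 6.90. In wt *Tet1* changed by −0.75 ± 0.23 from d4 to d16 (not called), and the marker mean went from 6.90 to 7.03. The part of ESCs or of these marker genes in the *Dnmt3l* and *Tet1* results was not tested.

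*Tet2* (chromosome 3, 133463677 to 133545136) dipped at d4 in all 3 genotypes. Its signals in wt were 7.72 and 7.88 at d0, 6.51 and 5.30 at d4, and 7.42 and 7.22 at d16. The *Dnmt1*-/- cells gave 8.12 and 7.52, 5.58 and 5.37, and 6.54 and 6.61. In TKO cells they were 8.34 and 8.11, 5.69 and 6.32, and 6.84 and 6.96. The d4 arrays of each line lay below its d0 and d16 arrays, and the wt arrays of d4 were far apart (SD 0.86). From d0 to d4 it fell in each line, with −1.89 ± 0.33 in wt (adjusted p = 0.003), −2.34 ± 0.33 in *Dnmt1*-/- (adjusted p = 0.00072) and −2.22 ± 0.33 in TKO (adjusted p = 0.0017), and these 3 calls held without each array. The difference of this change between TKO and wt was −0.33, with a 95% interval of −1.34 to 0.68, and between *Dnmt1*-/- and wt −0.45 (−1.46 to 0.56).

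After d4 *Tet2* rose by 1.41 ± 0.33 in wt (adjusted p = 0.012), which was lost without replicate 2 of wt d4 (0.80) or either array of wt d16 (1.31 and 1.51). In *Dnmt1*-/- and TKO it showed 1.10 ± 0.33 and 0.89 ± 0.33, which did not pass the test (adjusted p = 0.082 and 0.2), although the former was called without either array of wt d4 (adjusted p = 0.017). At d16 it was still called below its ESC level in *Dnmt1*-/- (−1.25 ± 0.33, adjusted p = 0.021) and TKO (−1.33 ± 0.33, adjusted p = 0.036), while wt stood at −0.48 ± 0.33, which did not pass the test (adjusted p = 0.36). The difference of this change from wt did not pass the test in either mutant, with −0.77 in *Dnmt1*-/- (adjusted p = 0.68) and −0.85 in TKO (adjusted p = 0.42). The call of *Dnmt1*-/- was lost without replicate 1 of *Dnmt1*-/- d0 (−0.95) or either array of *Dnmt1*-/- d16 (−1.21 and −1.28). That of TKO was lost without either array of wt d0, *Dnmt1*-/- d16, TKO d0 or TKO d16 (−1.44 to −1.22). No comparison of a mutant with wt on the same day called *Tet2*.

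*Tet3* (chromosome 6, 83362373 to 83457208) was the only one of the 8 genes that rose from ESCs to late wt EBs. The wt arrays gave 6.01 and 5.98 at d0, 6.77 and 6.44 at d4, and 7.33 and 7.13 at d16. Those of *Dnmt1*-/- cells were 6.07 and 6.13, 6.25 and 6.60, and 6.93 and 6.60. TKO cells gave 6.17 and 5.75, 5.95 and 5.96, and 6.24 and 6.40. The wt arrays of d16 were above all others, and the TKO arrays of d16 were below those of the other genotypes on that day. The rise in wt was 1.24 ± 0.18 (2.36-fold, adjusted p = 0.00033) and held without each array, but the second probe set of the gene gave 0.67 ± 0.14, under 2-fold (adjusted p = 0.0044). *Dnmt1*-/- showed 0.67 ± 0.18 over the same time, under 2-fold (adjusted p = 0.026), and TKO 0.36 ± 0.18 (adjusted p = 0.36). The second probe set gave 0.30 ± 0.14 in *Dnmt1*-/- (adjusted p = 0.19) and −0.01 ± 0.14 in TKO (adjusted p = 0.99). At d16 the difference of TKO from wt was −0.91 ± 0.18 (adjusted p = 0.0052), under 2-fold, and it was called without replicate 2 of wt d16 (−1.01). In the second probe set that difference was −0.47 ± 0.14 and did not pass the test (limma, adjusted p = 0.051).

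By their mean level at d16, markers of endoderm and liver and of stroma ran in the order of *Tet3*, and those of blood did not. The mean level of 4 endoderm and liver genes (*Afp*, *Alb*, *Ttr* and *Apoa1*) was 12.004 to 12.15 on the wt arrays, 11.32 to 11.34 in *Dnmt1*-/- and 8.79 to 9.20 in TKO. That of 5 fibroblast and stroma genes (*Col1a1*, *Col1a2*, *Col3a1*, *Thy1* and *Postn*) was 10.42 to 10.74, 8.63 to 9.06 and 6.38 to 7.05. From wt to TKO at d16, 3 of the former and 4 of the latter were called lower, with *Alb* at a mean of 3.99 in TKO. From wt to *Dnmt1*-/- *Alb* was called lower (−3.02), while *Afp* (−0.25), *Ttr* (0.06) and *Apoa1* (0.23) were not called. The mean of 4 blood genes (*Hbb-bh1*, *Hba-x*, *Tyrobp* and *Cd68*) at d16 was 6.83 to 8.81 in wt, 7.96 to 8.23 in *Dnmt1*-/- and 6.34 to 7.15 in TKO. Of these 4, 1 was called lower than in wt in each mutant. The part of all these markers in the *Tet3* result was not tested.

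The 4 probe sets shared by *Tdg* (chromosome 10, 82629814 to 82650799) and *Tdg-ps2* (chromosome 10, 42052558 to 42055453) moved within a narrow range. Their group means spanned 0.59 to 0.69, with the lowest mean in wt d16 and the highest in TKO d4 in each of them. None was called in any comparison, and from d0 to d16 in wt they gave −0.44 to −0.37. From d4 to d16 in wt they gave −0.59 to −0.51, under 2-fold, with adjusted p between 0.034 and 0.042 in 3 of the 4 and 0.07 in the other. Signal from the gene and from its pseudogene could not be told apart.

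**Figure D3:**
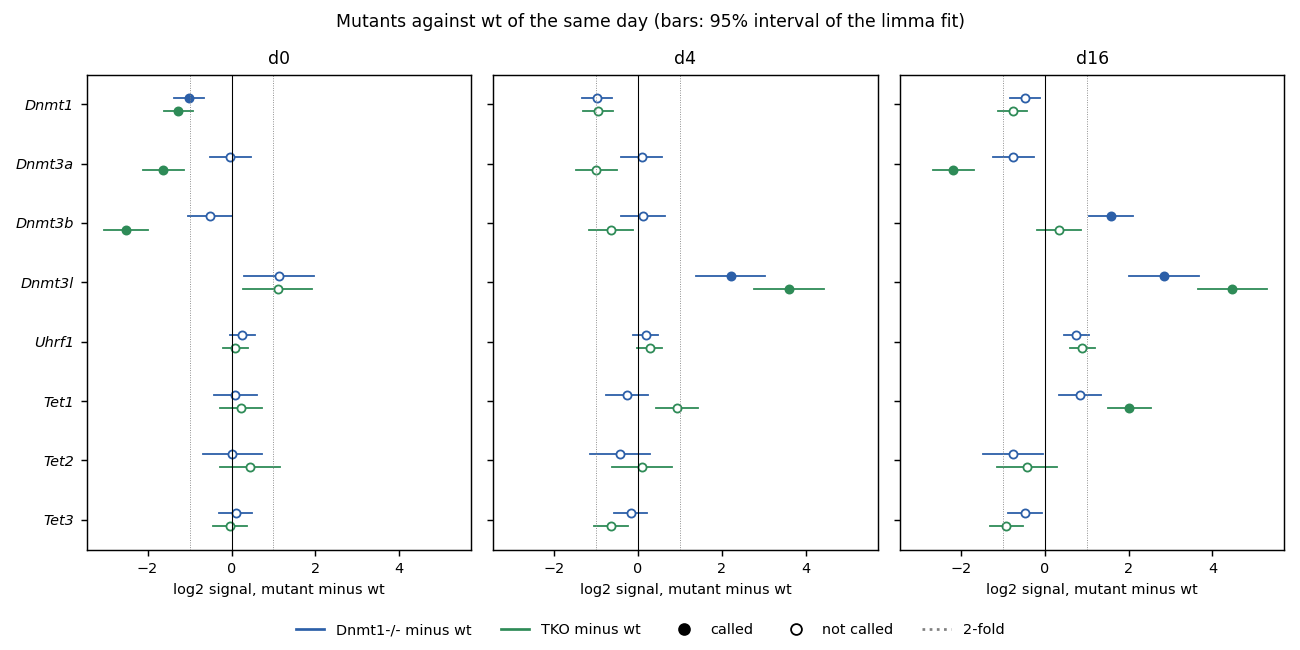
Log2 signal of each mutant minus wt on d0, d4 and d16 (horizontal axes) for the 8 genes (Dnmt1-/- blue, TKO green). Points are limma estimates from 2 arrays a group, bars their 95% intervals, filled points calls, and dotted lines mark 2-fold. *Dnmt3l* lies furthest to the right at d4 and d16, reaching 4.47 in TKO, and the genes furthest to the left are mutated ones, *Dnmt3b* with −2.52 at d0 and *Dnmt3a* with −2.18 at d16.

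Few of the 8 genes were called between mutant and wt EBs, although more of them had an unadjusted p under 0.05. At that p there were 2 genes in *Dnmt1*-/- and 6 in TKO at d4, and 8 and 6 at d16. The share of all probe sets at an unadjusted p under 0.05 was not counted. Whether such counts, here and below, are unusual is therefore not known. At d4 1 gene was called in *Dnmt1*-/- EBs and 1 in TKO EBs, *Dnmt3l* each time, where 0.738% and 2.92% of all probe sets were called. At d16 2 were called in *Dnmt1*-/- EBs (*Dnmt3b* and *Dnmt3l*) and 3 in TKO EBs (*Dnmt3l*, *Tet1* and, lower, *Dnmt3a*), against 2.89% and 5.83% of all probe sets (1.53% higher and 1.36% lower in *Dnmt1*-/-, 2.4% higher and 3.43% lower in TKO). These mutant comparisons share their wt arrays. Counts over the 8 genes include the mutated ones, and their median log2 fold change in TKO EBs of d16 was −0.04, against 0.05 over all probe sets.

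Between TKO and *Dnmt1*-/- cells, which differ in *Dnmt3a* and *Dnmt3b*, the calls fell mostly on those genes. At d0 *Dnmt3a* differed by −1.60 ± 0.22 without passing the test (adjusted p = 0.12), although it was called with array medians subtracted (−1.61, adjusted p = 0.041) and with adjustment over all comparisons together (adjusted p = 0.0009). *Dnmt3b* was called (−1.99 ± 0.24, adjusted p = 0.047), 1 of 2 called among 35512 probe sets (0.00563%). This call held on omission of an array of wt d4 or *Dnmt1*-/- d4 but was lost on omission of any of the 14 others, with −2.07 to −1.92 and adjusted p between 0.066 and 0.62. At d4 2 of 8 genes were called, *Tet1* higher and *Dnmt3a* lower (−1.08 ± 0.22, adjusted p = 0.037), against 0.848% of probe sets. At d16 3 were called, *Tet1* higher, *Dnmt3a* lower (−1.43 ± 0.22, adjusted p = 0.0075) and *Dnmt3b* lower (−1.25 ± 0.24, adjusted p = 0.023), against 1.07% of probe sets. Without 1 array the *Dnmt3a* difference at d4 lost its call in 8 cases, either array of *Dnmt1*-/- d4, *Dnmt1*-/- d16, TKO d0 and TKO d4 (−1.13 to −1.03). At d16 *Dnmt3a* lost it without replicate 1 of *Dnmt1*-/- d16 (−1.47) or replicate 2 of TKO d16 (−1.54), and *Dnmt3b* without either array of *Dnmt1*-/- d16 or TKO d16 (−1.34 to −1.15).

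In wt, every gene of the 8 except *Dnmt1* was called in at least 1 comparison of days. There 4 were called lower from d0 to d4 (*Dnmt3a*, *Dnmt3l*, *Tet1* and *Tet2*), where 4.51% of all probe sets were called, 2.08% lower and 2.43% higher. From d4 to d16, *Dnmt3b* was called lower and *Tet2* higher, against 5.87%. From d0 to d16, 4 were called lower (*Dnmt3b*, *Dnmt3l*, *Uhrf1* and *Tet1*) and 1 higher (*Tet3*), against 10.8% of all probe sets (4.62% lower and 6.17% higher), and these 5 calls held without each array.

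In the mutants the falls of *Dnmt3l*, *Tet1* and *Tet2* by d4 were called as well. *Dnmt3a* showed −0.91 ± 0.22 in *Dnmt1*-/- (adjusted p = 0.021), under 2-fold, and its change differed from that of wt by 0.11 (95% interval −0.57 to 0.80). In TKO it showed −0.40 ± 0.22 (adjusted p = 0.4). *Dnmt1*-/- cells had 3 of 8 genes called from d0 to d4 (4.61% of probe sets), and TKO cells 4 (3.17%), with the rise of *Dnmt3b* as the fourth. From d4 to d16 limma called 0 of 8 in *Dnmt1*-/- cells, with 4 at an unadjusted p under 0.05, where 2.7% of probe sets were called. In TKO cells it called 1, *Dnmt3b* (1.41%). From d0 to d16 the counts were 4 in *Dnmt1*-/- cells (*Dnmt3a*, *Dnmt3l*, *Tet1* and *Tet2*, against 6.9%) and 2 in TKO cells (*Tet1* and *Tet2*, against 2.5%). Without replicate 1 of *Dnmt1*-/- d0, *Dnmt3a* was called from d0 to d4 too (−1.16).

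Set against each other, the changes over time differed between genotypes for 3 of the 8 genes. Between TKO and wt the change differed for 2 genes from d0 to d4 (*Dnmt3b* and *Dnmt3l*, against 1.38% of probe sets) and for 3 from d0 to d16 (*Dnmt3b*, *Dnmt3l* and *Tet1*, against 3.91%), all more positive in TKO. Between *Dnmt1*-/- and wt it differed for 1 gene, *Dnmt3b*, from d0 to d16 (against 1.37%). From d4 to d16 limma called 0 of 8 in each of these contrasts, with 4 for TKO and 5 for *Dnmt1*-/- at an unadjusted p under 0.05, where 2.89% and 0.884% of probe sets were called. From d0 to d4 *Dnmt1*-/- against wt had 0 of 8, 0 at an unadjusted p under 0.05, and 0% of probe sets. Between TKO and *Dnmt1*-/- 0 of 8 were called in each interval, against 0.031%, 0.163% and 0.152% of probe sets for d0 to d4, d4 to d16 and d0 to d16. These contrasts share their arrays with one another.

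**Figure D4:**
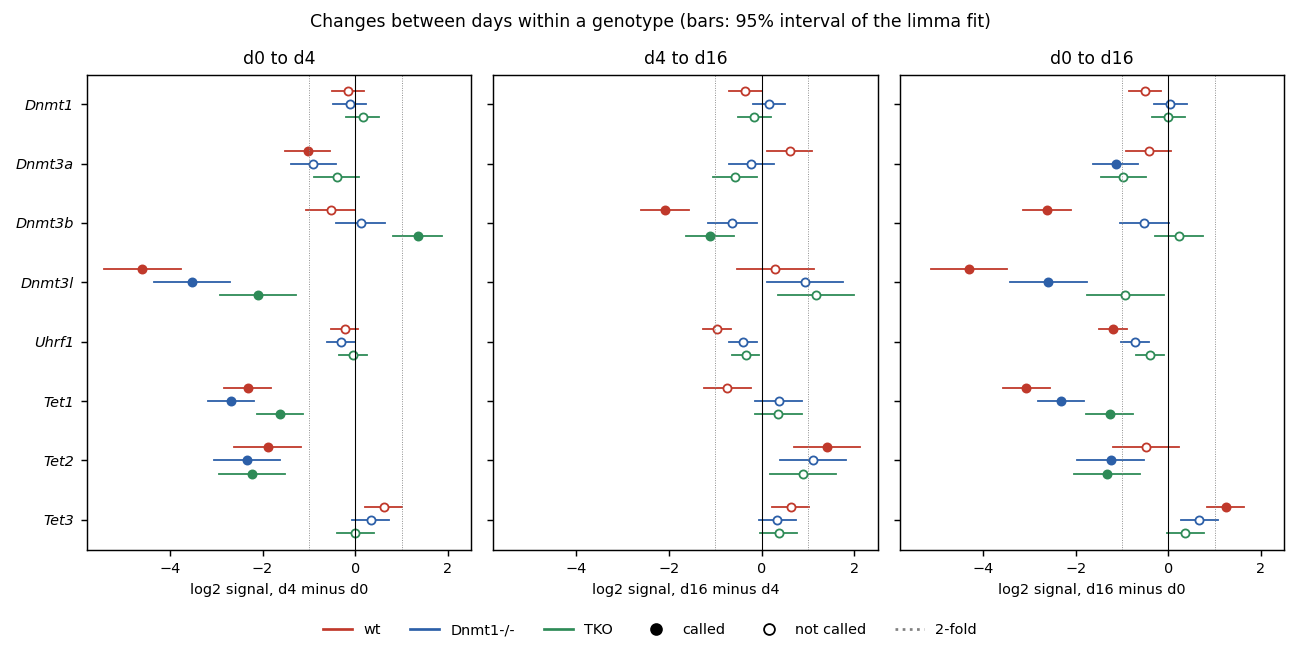
Log2 change of the 8 genes from d0 to d4, d4 to d16 and d0 to d16 (horizontal axes) in wt (red), Dnmt1-/- (blue) and TKO (green). Points are limma estimates from 2 arrays a group, bars their 95% intervals, filled points calls, and dotted lines mark 2-fold. From d0 to d16 *Dnmt3b* changed by −2.62 in wt and was not called in the mutants, and *Tet1* changed by −3.07, −2.32 and −1.27 in wt, Dnmt1-/- and TKO.

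Patterns most like those of the 8 genes were looked up among 5962 probe sets of 1 symbol whose group means spanned at least 1, by Pearson's r over the 18 arrays. These arrays fall into 9 groups, so r mostly follows the group means and carries no test. *Dnmt3l* was most like *Hsf2bp* (r = 0.989), *Tdrd12* (0.987) and *Dppa2* (0.982), genes known from meiosis, from the piRNA pathway of germ cells and from pluripotent cells. *Tet1* was most like *Zfp57* (r = 0.977), which protects methylation at imprinted loci, followed by *Rest* (0.974) and *Jarid2* (0.973). *Uhrf1* was most like *Prmt3* (r = 0.971), *Dkc1* (0.969) and *Actl6a* (0.963). *Tet2* came closest to *Kdm3a* (r = 0.944), *Mmp11* (0.934) and *Tns3* (0.927), and *Tet3* to *Tcta* (r = 0.956), *Lsp1* (0.952) and *Tmed4* (0.946). The mutated genes had looser matches, *Dnmt3b* with *Rfwd3* (r = 0.870), *Tlcd1* (0.869) and *Tasor2* (0.821), *Dnmt3a* with *Bbs2* (r = 0.855), *Srl* (0.830) and *Wdr6* (0.777), and *Dnmt1* with *Tcf25* (r = 0.725), *Mphosph6* (0.722) and *Nt5c3b* (0.698).

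Genes that work with these enzymes were read in 5 lists, with 59 genes analysed here. Their calls were not tested by omission of an array. In ESCs 0 of the 59 were called in either mutant against wt by limma, where 0.355% and 0.304% of all probe sets were called. From d0 to d16 in wt, 3 were called higher and 12 lower (25.4%, against 10.8% of all probe sets). In TKO EBs of d16, 8 were called higher and 3 lower than in wt (18.6%, against 5.83%), and in *Dnmt1*-/- EBs 1 higher and 2 lower (5.08%, against 2.89%). At d4 the counts against wt were 2 higher and 1 lower in TKO (5.08%, against 2.92% of all probe sets) and 0 in *Dnmt1*-/- (against 0.738%).

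Factors that bring methylation to DNA or protect it held 4 of the 8 higher calls in TKO EBs of d16, or 4 of 18 genes against 2.4% of all probe sets. Of these 18 genes 6 fell in wt from d0 to d16 (against 4.62% of all probe sets) and 0 rose, with a median log2 change of −0.76 against −0.07 over all probe sets. *Hells*, a chromatin remodeller needed for normal methylation, fell in wt (−2.00 ± 0.16, adjusted p = 3.4e-06) and was 1.36 ± 0.16 higher in TKO than in wt at d16. Falls in wt were also called for *Zfp57* (−1.91 ± 0.25), *Dppa3*, which protects methylation in the early embryo (−1.57 ± 0.25), and *Cdca7*, a partner of Hells (−1.45 ± 0.17). At d16 *Dppa3* exceeded wt by 1.92 ± 0.25 in TKO EBs (adjusted p = 0.00025). *Usp7*, a deubiquitinase that binds Dnmt1, was 1.28 ± 0.11 higher (adjusted p = 7.9e-06) and *Zfp57* 1.05 ± 0.25 higher (adjusted p = 0.013). In *Dnmt1*-/- EBs of d16, *Hells* alone of these 18 was called, 1.06 ± 0.16 above wt (adjusted p = 0.0015). The mean of the 8 ESC markers at d16 was 7.03 in wt and 9.67 in TKO, and that of the 7 cell cycle genes 9.16 and 9.88, and their part in these results was not tested.

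Enzymes of base excision repair and cytosine deaminases moved in both directions. Of 16 measured genes, against 4.62% of all probe sets, 3 fell in wt from d0 to d16. These were *Apobec3*, a deaminase of innate immunity (−1.90 ± 0.30), *Ung*, which excises uracil (−1.52 ± 0.17), and *Parp1*, which senses strand breaks (−1.32 ± 0.13). In TKO EBs of d16 the same 3 genes were called higher than in wt, by 1.74 ± 0.30, 1.06 ± 0.17 and 1.09 ± 0.13 (against 2.4% of all probe sets). *Apobec1*, which edits apolipoprotein B mRNA, was lower than in wt in each mutant at d16, with −1.72 ± 0.22 in TKO (adjusted p = 0.00024) and −1.72 ± 0.22 in *Dnmt1*-/- EBs (adjusted p = 0.00054).

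Of the other lists, the methyl donor cycle had 4 of 10 genes called in wt from d0 to d16, against 10.8% of all probe sets. The readers had 1 of 8 called and the Tet partners 1 of 7, which is near that share. In mutant EBs of d16 against wt, 5.83% of all probe sets were called in TKO and 2.89% in *Dnmt1*-/-. Of 8 measured methyl-CpG readers, *Mbd2* rose in wt from d0 to d16 (1.93 ± 0.27, adjusted p = 0.00023) and was called lower in TKO than in wt at d16 (−1.09 ± 0.27, adjusted p = 0.018). Of 7 Tet partners and enzymes of 2-oxoglutarate supply, *Idh2* rose in wt (1.81 ± 0.15), and 0 were called between mutants and wt at d16. Of 10 genes of the methyl donor cycle, *Mthfd1* (−1.51 ± 0.12), *Shmt1* (−1.31 ± 0.12) and *Mtrr* (−1.19 ± 0.16) fell in wt, and *Mat1a*, the S-adenosylmethionine synthetase of liver, rose (1.76 ± 0.30). In TKO EBs of d16 *Mthfd1* was 1.08 ± 0.12 higher than in wt. *Mat1a* was lower than in wt in each mutant at d16, with −1.35 ± 0.30 in TKO and −1.35 ± 0.30 in *Dnmt1*-/- EBs. Of the 4 liver markers 3 were called lower in TKO and *Alb* alone in *Dnmt1*-/-, and their part in the *Mat1a* result was not tested.

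**Figure D5:**
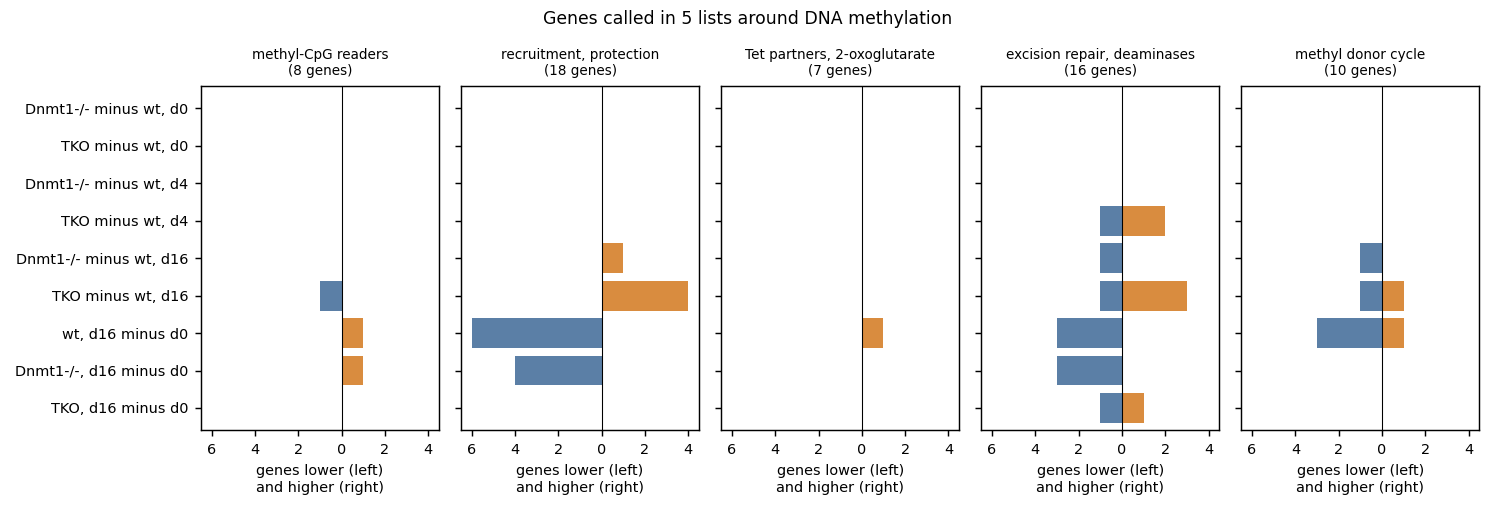
Number of genes called lower (blue, left of 0) and higher (orange, right of 0) in each of 5 lists of genes around DNA methylation, with 8, 18, 7, 16 and 10 measured genes, for 9 comparisons (vertical axis). The longest bar is the 6 of 18 recruitment and protection genes that fell in wt from d0 to d16, and no gene was called in mutant against wt ESCs.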

How the data were processed

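The authors deposited log2 signals per probe set, made with RMA (background correction, normalization between arrays, summary over the probes of a set) from Affymetrix Mouse Gene 1.0 ST arrays hybridized from 300 ng of Trizol RNA. The sources used here name neither the RMA version nor a filter. The number of arrays, 2 a group, limits precision, with a median SE over probe sets and comparisons of 0.203. The values were used without further normalization.

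The 18 arrays entered 1 model of group means (limma 3.58.1 under R 4.3.3, with eBayes), read in 18 comparisons and 9 differences of changes. A call needed 2-fold and an adjusted p under 0.05 (Benjamini-Hochberg within a comparison), the thresholds of the study, and the script was tested on simulated data. Gene symbols came from the array's annotation (1 symbol for 21789 probe sets, several for 1621 and none for 12102). Where a gene had more than 1 probe set, the one of highest mean was used. From each list up to 4 called genes with the largest change were named, for mutant EBs of d16 and for wt from d0 to d16. The genes, lists and tests were chosen with earlier results of these data known. Figures were drawn with matplotlib 3.10.9.

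The alternatives were array medians subtracted, further quantile normalization, omission of the 30% dimmest probe sets, the replicate number as a block, eBayes with trend and robust variance, adjustment over all comparisons together, a fit of only the arrays compared, other probe sets and omission of each array.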

Additional observations from a re-analysis of the deposited data

Results flagged for a closer look

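In 6 cases the change of a gene over time differed between genotypes by the test of the difference itself (limma, adjusted over all probe sets). For *Dnmt3b*, the change from d0 to d16 was 2.85 more positive in TKO than in wt (SE 0.34, adjusted p = 0.00052) and 2.10 more positive in *Dnmt1*-/- than in wt (SE 0.34, adjusted p = 0.012). From d0 to d4 it was 1.88 more positive in TKO than in wt (SE 0.34, adjusted p = 0.02), and this gene is mutated in TKO. For *Dnmt3l*, the change in TKO was more positive than in wt by 2.50 from d0 to d4 (SE 0.54, adjusted p = 0.041) and by 3.37 from d0 to d16 (SE 0.54, adjusted p = 0.0032). For *Tet1*, it was more positive by 1.80 from d0 to d16 (SE 0.33, adjusted p = 0.0072). The d0 to d4 difference of *Dnmt3b* lost its call without either array of wt d0, TKO d0 or TKO d4, or replicate 1 of wt d4 (1.55 to 2.03), and its *Dnmt1*-/- difference without replicate 2 of wt d0 (2.00). The d0 to d4 difference of *Dnmt3l* lost it without either array of wt d0, wt d4, *Dnmt1*-/- d0, *Dnmt1*-/- d16, TKO d0 or TKO d16, or replicate 2 of TKO d4 (2.01 to 2.76). The other 3 held without each array. None of the 8 genes was called for a difference of change between TKO and *Dnmt1*-/-, where the widest was *Dnmt3l* from d0 to d16 with 1.66 (95% interval 0.49 to 2.83, adjusted p = 0.37). At an unadjusted p under 0.05, that contrast had 3 genes from d0 to d4, 0 from d4 to d16 and 3 from d0 to d16.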

How the results depend on the processing

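Of 42 calls of the 8 genes in 18 comparisons, 23 held without each of the 18 arrays, and of 6 called differences of changes 3 did. No called value changed sign under any alternative. The number of called genes changed by over 1.5 times under some settings. Subtraction of array medians and adjustment over all comparisons together gave 2 for TKO against *Dnmt1*-/- at d0 in place of 1. Further quantile normalization gave 0 for *Dnmt1*-/- against wt at d0, 0 and 1 for TKO against *Dnmt1*-/- at d0 and d4, and 0 for TKO from d4 to d16. Trend and robust variance gave 0 for TKO against *Dnmt1*-/- at d0, and the *Tet1* probe set 10369702 gave 1 for that comparison at d4. A fit of only the 4 arrays compared, with fewer samples for the spread, gave 0 for *Dnmt1*-/- against wt at d0 and d4, 1 for TKO against wt at d0, and 0 for TKO against *Dnmt1*-/- at d0, d4 and d16. Over time that fit gave 2 in wt from d0 to d4 and 1 from d4 to d16, and in TKO 0 from d4 to d16 and 1 from d0 to d16. A difference of changes was likewise fitted to the arrays of all groups that enter it, which are more than 4. This ended both called differences of changes from d0 to d4 between TKO and wt. The log2 values stayed the same for *Dnmt3b* (1.88, limma, adjusted p = 0.056) and *Dnmt3l* (2.50, adjusted p = 0.061). The cause of the other shifts was not tested.

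Without 1 array, the counts ran from 0 to 1, 0 to 2 and 2 to 3 for *Dnmt1*-/- against wt at d0, d4 and d16. For TKO against wt they ran from 1 to 3, 1 to 3 and 3 to 4, and for TKO against *Dnmt1*-/- from 0 to 1, 0 to 2 and 0 to 4. For d0 to d4, d4 to d16 and d0 to d16 they ran from 3 to 4, 1 to 2 and 5 to 5 in wt, from 3 to 4, 0 to 1 and 3 to 4 in *Dnmt1*-/-, and from 2 to 4, 0 to 1 and 0 to 2 in TKO. *Dnmt3a* gained a call for its change from d4 to d16 in TKO against wt without either array of wt d0 (−1.18) or replicate 1 of wt d16 (−1.40), and *Dnmt3b* in *Dnmt1*-/- against wt without replicate 1 of *Dnmt1*-/- d4 (1.80).

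Same-numbered arrays deviated together with r from 0.041 to 0.501 (median 0.273) over the 36 pairs of groups, positive in all and over 0.1 in 32. Replicate 1 was the higher array in 1 of 9 groups for *Dnmt1* and in 2 of 9 for *Dnmt3a* and *Dnmt3b*. The numbers were not used as pairs in the values above, since the labels do not tie a number to a shared experiment. The p-values above therefore leave this shared deviation out of account. With the replicate number as a block, 2 genes were called for TKO against *Dnmt1*-/- at d0, with *Dnmt3a* added (−1.60, adjusted p = 0.025). The block also added *Dnmt3l* at d16 (1.63, adjusted p = 0.041) and the *Dnmt3a* change from d4 to d16 in TKO against wt (−1.18, adjusted p = 0.013), and it ended no call. With 2 arrays a group from 1 line per genotype, p-values measure the spread between these arrays.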

Other observations

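Among the 8 genes themselves, *Dnmt3l* and *Tet1* had the highest correlation over the 18 arrays (r = 0.887), followed by *Uhrf1* and *Tet1* (0.715) and *Tet1* and *Tet2* (0.704). *Tet3* ran opposite to *Uhrf1* (−0.863), *Tet1* (−0.792) and *Dnmt3l* (−0.743). *Dnmt3a* and *Dnmt3b*, which are mutated together in TKO, correlated at 0.509. These values follow the 9 group means and are given without a test.

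*Gadd45a* and *Gadd45g*, of a family linked to active demethylation, were called at d4 in opposite directions, and were chosen for mention after their values were seen. In TKO EBs *Gadd45a* was 1.30 ± 0.21 higher than in wt (limma, adjusted p = 0.0025) and *Gadd45g* 1.36 ± 0.30 lower, with a log2 fold change of −1.36 (adjusted p = 0.018). *Gadd45b* was not called there, with a mean of 7.83 in TKO and 7.11 in wt. In *Dnmt1*-/- EBs of d4 none of these genes was called against wt. *Apobec3* was already 1.20 ± 0.30 higher in TKO at that day (adjusted p = 0.035).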
